A study of Homo sapiens with 9 samples.

Results

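In A549, a cell line established from a human lung adenocarcinoma, 10 genes for secreted proteins of the extracellular matrix were followed. The genes were FN1, HMCN1, SVEP1, CEMIP, SPARC, TNC, THBS1, FBN1, FBN2 and FBLN1. Each was matched by symbol to 1 row of a table of 60664 Ensembl genes, and all 10 were among the 16903 genes with enough counts to test. RNA sequencing libraries came from 3 groups of 3: cells with a short hairpin RNA directed, per the labels, at HES1 (shHES1), cells with one directed at HES4 (shHES4), and cells with a control hairpin (shCtrl). HES1 and HES4 encode transcriptional repressors, and the series title asks how both affect gene expression in this line. The labels give neither the hairpin sequences nor the time after delivery, and do not say whether cells were pooled or cloned or came from separate cultures. Any p-value below therefore reflects library-to-library spread alone, possibly technical. The 10 symbols were chosen by their matrix role and selected on count differences between these same groups. Their differences between groups are given below as descriptions, with a standard error (SE) and no p-value.

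The extracellular matrix is the protein and sugar network that cells secrete around themselves. Fibronectin (FN1) is assembled by integrins into adhesive fibrils. The fibrillins FBN1 and FBN2 polymerise into microfibrils, and fibulin-1 (FBLN1) binds fibronectin, microfibrils and basement membranes. HMCN1 (hemicentin-1) and SVEP1 are very large multidomain proteins: hemicentins line tissue junctions in worms and fish, and SVEP1 acts in lymphatic vessel development in mice and fish. Tenascin-C (TNC), thrombospondin-1 (THBS1) and SPARC are matricellular proteins, which modulate adhesion and signalling more than they bear load. CEMIP takes part in the breakdown of hyaluronan, the long glycan that fills matrix. Fibroblasts are the classical source of most of these proteins, but carcinoma cells can also make them.

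Total estimated counts were 22.8 to 27.6 M per library. HES1 itself stood no lower under the shHES1 label, at 9.11, 6.40 and 8.32 CPM (counts per 1e6 reads, scaled for library composition), against 6.99, 6.55 and 7.17 CPM in shCtrl. HES4 was lower in both shHES groups, with 20.4, 17.1 and 16.6 CPM in shHES4 and 18.3, 15.2 and 15.7 CPM in shHES1, against 21.3, 25.4 and 27.7 CPM in shCtrl. Directions given for shHES1 are therefore those of the libraries labelled shHES1. The shCtrl libraries also carried 3 transcripts absent or nearly absent in the other 6 libraries, all 3 singled out after their values were seen. XIST, the noncoding RNA of the inactive X chromosome, had 0 counts in every shHES1 and shHES4 library, against 612, 601 and 565 in shCtrl. IRS4 had 0, 4 and 0 counts in shHES1 and 0, 1 and 1 in shHES4, against 126, 117 and 107 in shCtrl. CDKN2A, whose locus is deleted in A549, had 1, 0 and 3 counts in shHES1 and 0, 1 and 0 in shHES4, against 13, 27.1 and 21 in shCtrl. Whether the shCtrl libraries hold RNA of another cell line was not tested, and this applies to every difference from shCtrl given below, while shHES1 against shHES4 does not use those libraries in its fold change. In bulk RNA, fewer cells of a type and less RNA per cell cannot be told apart. Replicate 3 of shCtrl differed most from its own group, with a chi-square per degree of freedom of 4.81 and 6.36 against the other shCtrl libraries, where the range over all pairs within groups began at 2.31.

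Epithelial identity was checked first. KRT8 and KRT18, the keratins of simple epithelium, averaged 3340 and 1567 CPM in shHES1, 3949 and 2028 CPM in shHES4, and 3684 and 1917 CPM in shCtrl, while the lung lineage markers NKX2-1 and SFTPB were too low to test. AKR1B10 and AKR1C1, like both keratins, had their lowest mean in shHES1. KRT19, at 61.8 CPM in shHES1, 54.3 CPM in shHES4 and 37.3 CPM in shCtrl, and CDH1 and EPCAM had their highest mean there. All 9 epithelial markers summed to 6164 to 6299 CPM in shHES1 and 7327 to 7593 CPM in shHES4, against 7095 to 7172 CPM in shCtrl. The 10 fibroblast and mesenchyme markers summed to 29.7 to 31.1 CPM in shHES1 and 20.2 to 22.7 CPM in shHES4, against 20.9 to 31.2 CPM in shCtrl. Of these markers 5 were high enough to test, 9 had any count, and POSTN had none. COL1A1 averaged 13.1 CPM in shHES1, 5.77 CPM in shHES4 and 9.31 CPM in shCtrl, but COL1A2 was highest in shCtrl, at 3.04 CPM, with 1.36 CPM in shHES1 and 0.778 CPM in shHES4. LUM, THY1 and ACTA2 averaged 3.15, 2.57 and 9.20 CPM in shHES1, 3.62, 1.76 and 8.69 CPM in shHES4, and 2.82, 1.93 and 7.90 CPM in shCtrl, so the list had no common order of groups. DCN and PDGFRB averaged under 1 CPM in every group. The part of such cells in the differences below was not tested.

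Fibronectin dominated the set. FN1 (ENSG00000115414, chromosome 2 from 215360440 to 215436172 on the minus strand of GRCh38) had 823, 842 and 824 CPM in shHES1, 513, 540 and 556 CPM in shHES4, and 577, 606 and 629 CPM in shCtrl. Every shHES1 library lay above every other library, and every shHES4 library lay below every shCtrl library. FN1 was 1.37-fold as high in shHES1 as in shCtrl, a log2 difference of 0.46 ± 0.03 (SE), and differed by -0.17 ± 0.04 in shHES4 against shCtrl. Its transcript supplied 71.0% to 71.4% of the summed CPM of the 10 genes in shHES1 and 63.3% to 64.7% in shHES4, against 65.1% to 66.5% in shCtrl. The other 9 genes together held 329 to 340 CPM in shHES1 and 293 to 313 CPM in shHES4, against 309 to 317 CPM in shCtrl. Their sum was thus above the shCtrl libraries in all 3 shHES1 libraries even without FN1, while in shHES4 it overlapped them.

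**Figure D1:**
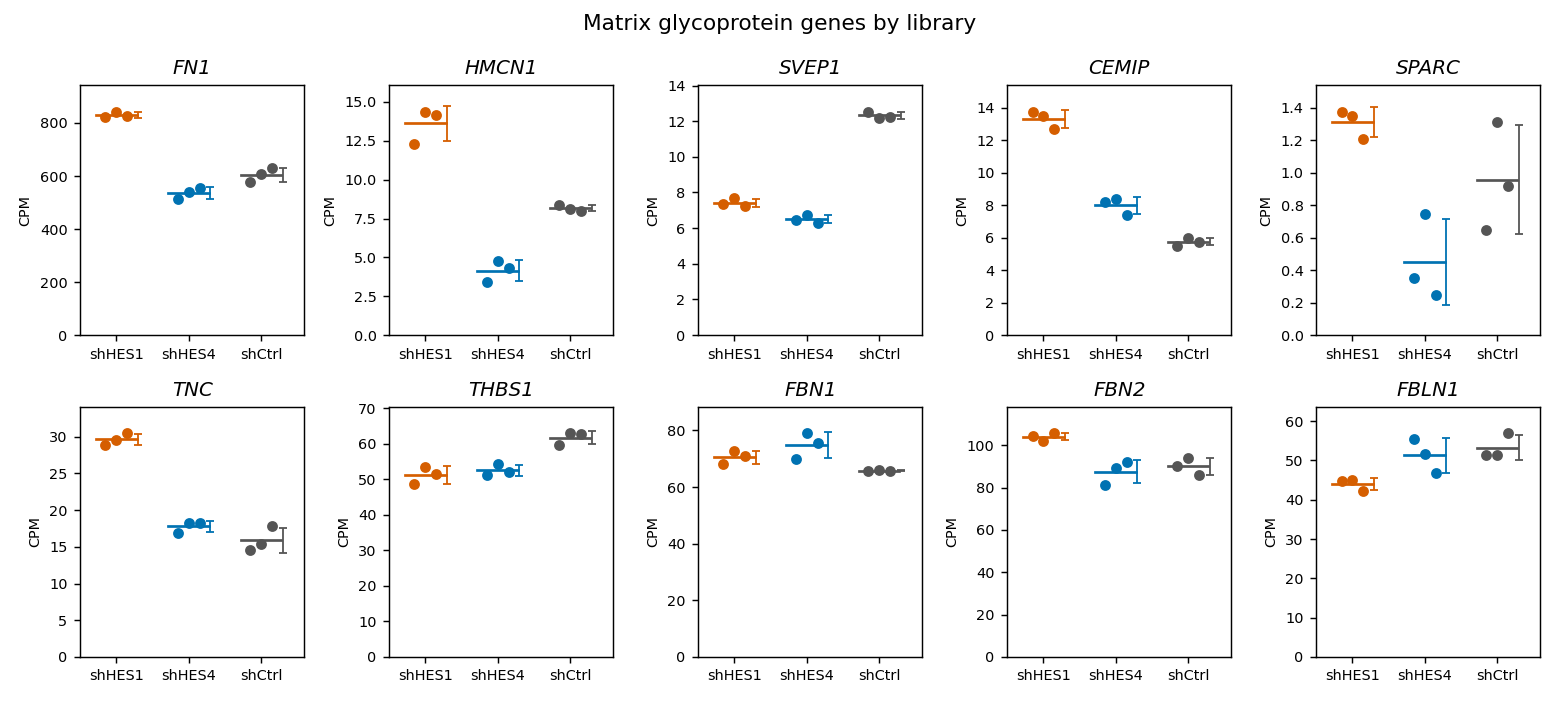
Normalised level (CPM, linear axes from 0) of each of the 10 genes in the 3 libraries of each group; points are libraries, horizontal lines group means and bars the SD over 3 libraries. All shHES1 libraries stand above the rest for FN1, HMCN1, CEMIP, TNC and FBN2, and all shCtrl libraries for SVEP1 and THBS1. The largest log2 differences of the fibrillins FBN1 and FBN2 are smaller than the largest of each of the other genes named here.

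Levels between genes were compared per kilobase of merged exons. Merged exons take in all annotated transcripts of a gene and can far exceed any 1 of them. FBLN1 has 7285 merged bases and 2896 in its longest transcript, FN1 17315 and 9171, and FBN2 13196 and 11132. The orders below hold for this choice of length, and FBLN1 would stand higher by its longest transcript. In shHES1 the order was FN1 at 47.9 ± 0.625 CPM per kilobase (SD, n = 3), then FBN2 (7.88), FBLN1 (6.04), THBS1 (5.59), FBN1 (4.39), TNC (3.08), CEMIP (1.74), HMCN1 (0.733), SVEP1 (0.523) and SPARC (0.271). FBLN1 and THBS1 were the only neighbours in that order whose libraries overlapped. In shHES4 the order was FN1 at 31.0 ± 1.25, FBLN1 (7.04), FBN2 (6.64), THBS1 (5.73), FBN1 (4.66), TNC (1.85), CEMIP (1.05), SVEP1 (0.459), HMCN1 (0.223) and SPARC (0.0928), with overlap of FBLN1 and FBN2. In shCtrl it was FN1 at 34.9 ± 1.51, FBLN1 (7.31), FBN2 (6.83), THBS1 (6.74), FBN1 (4.10), TNC (1.65), SVEP1 (0.869), CEMIP (0.753), HMCN1 (0.440) and SPARC (0.198). There FBLN1 overlapped FBN2 and FBN2 overlapped THBS1. Among all genes tested with a length, FN1 stood at percentile 95.1 in shHES1, 91.6 in shHES4 and 92.8 in shCtrl on this scale, and SPARC at percentile 10.5, 2.85 and 7.96. CEMIP, HMCN1 and SVEP1 changed places between groups. So did FBN2 and FBLN1, whose libraries overlapped in shHES4 and shCtrl.

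**Figure D2:**
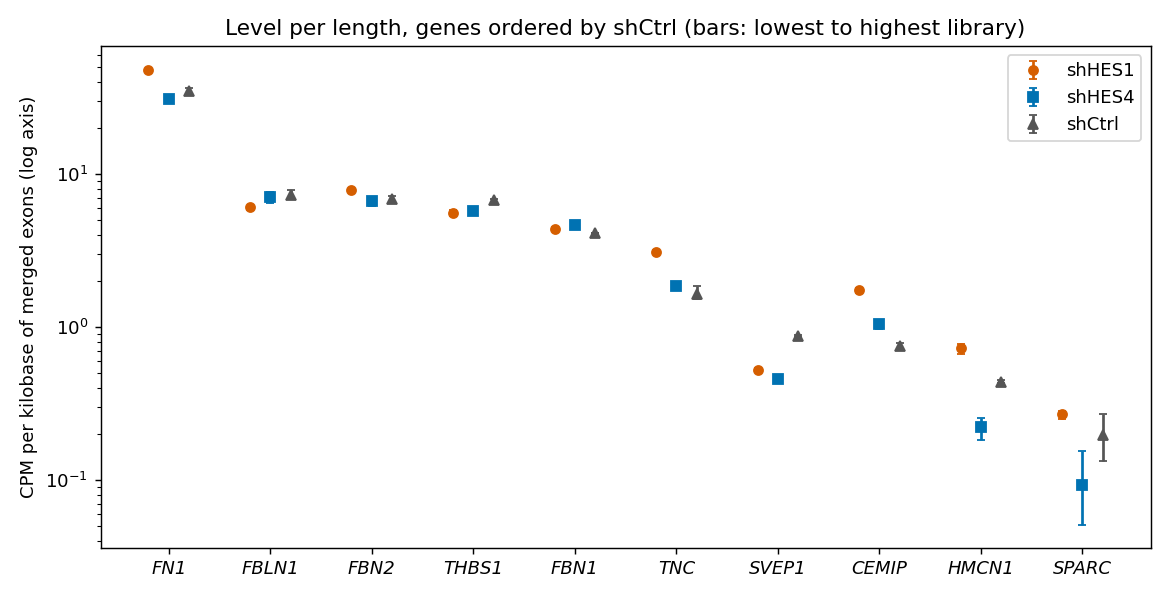
Mean level per kilobase of merged exons (CPM per kilobase, log axis) of the 10 genes in the 3 groups, ordered by shCtrl; bars run from the lowest to the highest of 3 libraries. FN1 stands apart at 31.0 to 47.9, 4 genes lie between 4.10 and 7.88, and SPARC is lowest in each group.

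Promoter windows were read from RefSeq for GRCh38.p14, 250 bases before the start, and 8 of the 10 genes matched. Shown are FN1, CEMIP, TNC and THBS1, whose shHES1 and shCtrl libraries did not overlap, cut to the bases that lie before the gene start in GENCODE 29. The windows of SPARC, FBN1, FBN2 and FBLN1 lay inside the annotated genes and are not shown. HES proteins bind the N box CACNAG and class C sites, here covered by CACGNG, a pattern that also takes in the CACGTG E box. Matches to these on either strand are in capitals.
FN1 (chr2:215436173-215436318, minus strand): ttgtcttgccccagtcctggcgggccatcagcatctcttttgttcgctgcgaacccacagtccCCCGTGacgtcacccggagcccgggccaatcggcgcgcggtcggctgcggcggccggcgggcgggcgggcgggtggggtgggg
CEMIP (chr15:80779120-80779342, plus strand): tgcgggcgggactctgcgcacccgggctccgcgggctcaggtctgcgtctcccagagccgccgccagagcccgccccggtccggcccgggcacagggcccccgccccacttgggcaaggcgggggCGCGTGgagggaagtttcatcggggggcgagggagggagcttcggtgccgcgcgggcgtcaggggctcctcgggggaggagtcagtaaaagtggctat
TNC (chr9:115118258-115118407, minus strand): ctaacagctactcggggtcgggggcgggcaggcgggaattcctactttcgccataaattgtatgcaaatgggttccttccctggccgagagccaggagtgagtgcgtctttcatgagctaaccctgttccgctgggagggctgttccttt
THBS1 (chr15:39580829-39581078, plus strand): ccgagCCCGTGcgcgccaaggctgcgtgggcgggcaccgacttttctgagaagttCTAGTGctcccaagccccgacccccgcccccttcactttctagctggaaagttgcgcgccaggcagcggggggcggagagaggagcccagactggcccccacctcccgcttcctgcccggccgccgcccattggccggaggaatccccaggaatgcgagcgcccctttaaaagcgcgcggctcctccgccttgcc

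Over the whole 250 bases, CACGNG matched in 6 of the 8 windows (FN1, CEMIP, SPARC, THBS1, FBN1 and FBN2) and in 26.7% of all 35116 windows of that length. The N box CACNAG matched in THBS1 alone among the 8, and in 32.0% of all windows. The AP-1 pattern TGANTCA matched in none of the 8 windows and in 6.57% of all, and the TEAD pattern GGAATG matched in SPARC, THBS1 and FBN1, and in 11.9% of all. The GC box GGGCGG matched in FN1, CEMIP, TNC, THBS1, FBN2 and FBLN1, and in 42.6% of all windows, while TATAAA matched in CEMIP alone and in 10.7% of all. All patterns were searched on both strands. The GC content of the 8 windows ran from 54.8% in TNC to 77.6% in FBLN1. That of all 35116 windows was not compared, so the shares above are not matched for base composition. A match is a run of letters and does not show binding. Genes higher and lower in shHES1 both held CACGNG, as the windows of CEMIP and THBS1 show.

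Among the giant matrix proteins, HMCN1 and SVEP1 took different courses. HMCN1 (ENSG00000143341, chromosome 1 from 185734551 to 186190949, plus strand, 107 exons in its longest transcript) had 12.3, 14.4 and 14.2 CPM in shHES1, 3.41, 4.74 and 4.30 CPM in shHES4, and 8.39, 8.11 and 8.0 CPM in shCtrl. The 3 groups did not overlap, with shCtrl in the middle. HMCN1 was 1.67-fold as high in shHES1 as in shCtrl (log2 difference 0.74 ± 0.10), 0.509-fold in shHES4 as in shCtrl (-0.98 ± 0.12), and 3.27-fold as high in shHES1 as in shHES4 (1.71 ± 0.12). That difference between the hairpins stood at percentile 99.8 of all genes tested, the highest of the 10 genes.

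SVEP1 (ENSG00000165124, chromosome 9 from 110365251 to 110579880, minus strand, 48 exons) had 7.37, 7.67 and 7.23 CPM in shHES1 and 6.46, 6.75 and 6.31 CPM in shHES4, against 12.5, 12.2 and 12.3 CPM in shCtrl. Both shHES groups lay well below shCtrl, and shHES1 lay just above shHES4 without overlap. The log2 difference was -0.73 ± 0.09 in shHES1 against shCtrl and -0.92 ± 0.09 in shHES4 against shCtrl, 2 comparisons that share the same 3 shCtrl libraries. These are the libraries with XIST, IRS4 and CDKN2A counts, whose part in the SVEP1 difference was not tested. The ratio of HMCN1 to SVEP1 CPM within a library, which no scaling between libraries can move, was 1.67, 1.87 and 1.96 in shHES1, 0.527, 0.701 and 0.682 in shHES4, and 0.670, 0.664 and 0.653 in shCtrl. It separated shHES1 from the other 6 libraries and did not separate shHES4 from shCtrl.

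CEMIP, the hyaluronan-degradation gene (ENSG00000103888, chromosome 15 from 80779343 to 80951776, plus strand, 30 exons), was higher in both shHES groups. It had 13.7, 13.4 and 12.7 CPM in shHES1, 8.19, 8.38 and 7.38 CPM in shHES4, and 5.51, 5.95 and 5.75 CPM in shCtrl, and the 3 groups did not overlap. CEMIP was 2.32-fold as high in shHES1 as in shCtrl (log2 difference 1.21 ± 0.09), the largest difference of the 10 genes in that comparison. In shHES4 it was 1.39-fold as high as in shCtrl (0.48 ± 0.10). Its exons share 224 bases with MESD on the opposite strand, which had 107, 105 and 112 CPM in shHES1 and 123, 128 and 123 CPM in shHES4, against 129, 126 and 133 CPM in shCtrl. Whether counting used strand is not given in the sources used here, and the part of MESD reads in the CEMIP values was not tested.

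Of the matricellular genes, TNC was higher in shHES1 and THBS1 lower in both shHES groups. TNC (ENSG00000041982, chromosome 9 from 115019578 to 115118257, minus strand, 28 exons) had 28.9, 29.6 and 30.4 CPM in shHES1, 16.9, 18.2 and 18.3 CPM in shHES4, and 14.6, 15.3 and 17.8 CPM in shCtrl. All shHES1 libraries lay above the rest, and shHES4 overlapped shCtrl through shCtrl replicate 3. TNC was 1.87-fold as high in shHES1 as in shCtrl (log2 difference 0.90 ± 0.07), and stood at 0.16 ± 0.08 in shHES4 against shCtrl. Leaving out 1 library at a time, the shHES4 value ran from 0.10 to 0.25, the highest (± 0.07) without shCtrl replicate 3. The ratio of FN1 to TNC CPM was 28.5, 28.4 and 27.1 in shHES1 and 30.3, 29.7 and 30.4 in shHES4, against 39.5, 39.5 and 35.4 in shCtrl. TNC was further above shCtrl than FN1 in shHES1. In shHES4 the TNC mean stood above shCtrl, with overlapping libraries and no call, where FN1 stood below.

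THBS1 (ENSG00000137801, chromosome 15 from 39581079 to 39599466, plus strand, 22 exons) had 48.5, 53.6 and 51.5 CPM in shHES1 and 51.1, 54.3 and 52.1 CPM in shHES4, against 59.5, 62.9 and 62.7 CPM in shCtrl. Both shHES groups lay below shCtrl and overlapped each other. The log2 difference from shCtrl was -0.27 ± 0.05 in shHES1 and -0.23 ± 0.05 in shHES4. Exons of FSIP1 and THBS1-AS1 on the opposite strand overlap THBS1. Over the shHES1, shHES4 and shCtrl libraries FSIP1 held 101, 57.5 and 80.3 counts, and THBS1-AS1 held 3.0, 2.02 and 4.01. THBS1 held 4102, 3663 and 4562 counts over the same libraries. The part of reads from these overlaps in the THBS1 values was not tested.

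SPARC (ENSG00000113140, chromosome 5 from 151661096 to 151687165, minus strand) was close to the detection limit. It had 38, 35 and 32 counts in shHES1 and 8, 17 and 6 counts in shHES4, against 17, 31 and 22 counts in shCtrl. In CPM these were 1.37, 1.35 and 1.20 in shHES1, 0.354, 0.745 and 0.246 in shHES4, and 0.646, 1.31 and 0.917 in shCtrl. The shHES1 and shHES4 groups did not overlap, and shCtrl overlapped both. The log2 difference was 0.46 ± 0.34 in shHES1 and -1.09 ± 0.40 in shHES4 against shCtrl, and 1.54 ± 0.38 in shHES1 against shHES4. Its SE was the largest of the 10 genes in all 3 comparisons, on 105, 31 and 70 counts over the shHES1, shHES4 and shCtrl libraries.

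Among the microfibril genes FBN1, FBN2 and FBLN1 the largest log2 difference was -0.27, for FBLN1 in shHES1 against shCtrl. FBN1 (ENSG00000166147, chromosome 15 from 48408306 to 48645849, minus strand, 66 exons) had 68.0, 72.6 and 70.9 CPM in shHES1 and 69.9, 78.9 and 75.7 CPM in shHES4, against 65.8, 65.9 and 65.7 CPM in shCtrl. Each shHES group lay above shCtrl without overlap, by 0.10 ± 0.05 in shHES1 and 0.19 ± 0.05 in shHES4 on the log2 scale. The shCtrl values lay unusually close together, with a coefficient of variation of 0.161% where shHES1 had 3.28% and shHES4 6.14%.

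FBN2 (ENSG00000138829, chromosome 5 from 128257909 to 128659185, minus strand, 71 exons) had 104, 102 and 106 CPM in shHES1, 81.4, 89.1 and 92.2 CPM in shHES4, and 90.0, 94.0 and 86.2 CPM in shCtrl. It was higher in shHES1 than in every other library, by 0.21 ± 0.05 on the log2 scale against shCtrl, and overlapped shCtrl in shHES4 (-0.04 ± 0.05). The ratio of FBN1 to FBN2 CPM was 0.653, 0.710 and 0.671 in shHES1, 0.858, 0.886 and 0.821 in shHES4, and 0.731, 0.701 and 0.762 in shCtrl. The shHES4 libraries thus held more FBN1 relative to FBN2 than any other library. FBN1 and FBN2 are paralogs, and reads shared between them could be split by the counting.

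FBLN1 (ENSG00000077942, chromosome 22 from 45502238 to 45601135, plus strand, 17 exons) had 44.8, 45.1 and 42.2 CPM in shHES1 and 55.5, 51.6 and 46.7 CPM in shHES4, against 51.5, 51.4 and 56.9 CPM in shCtrl. It was lower in shHES1 than in every other library, at -0.27 ± 0.06 on the log2 scale against shCtrl, and overlapped shCtrl in shHES4 (-0.06 ± 0.06). In shHES1, FBLN1 and FBN2 thus differed from shCtrl in opposite directions.

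**Figure D3:**
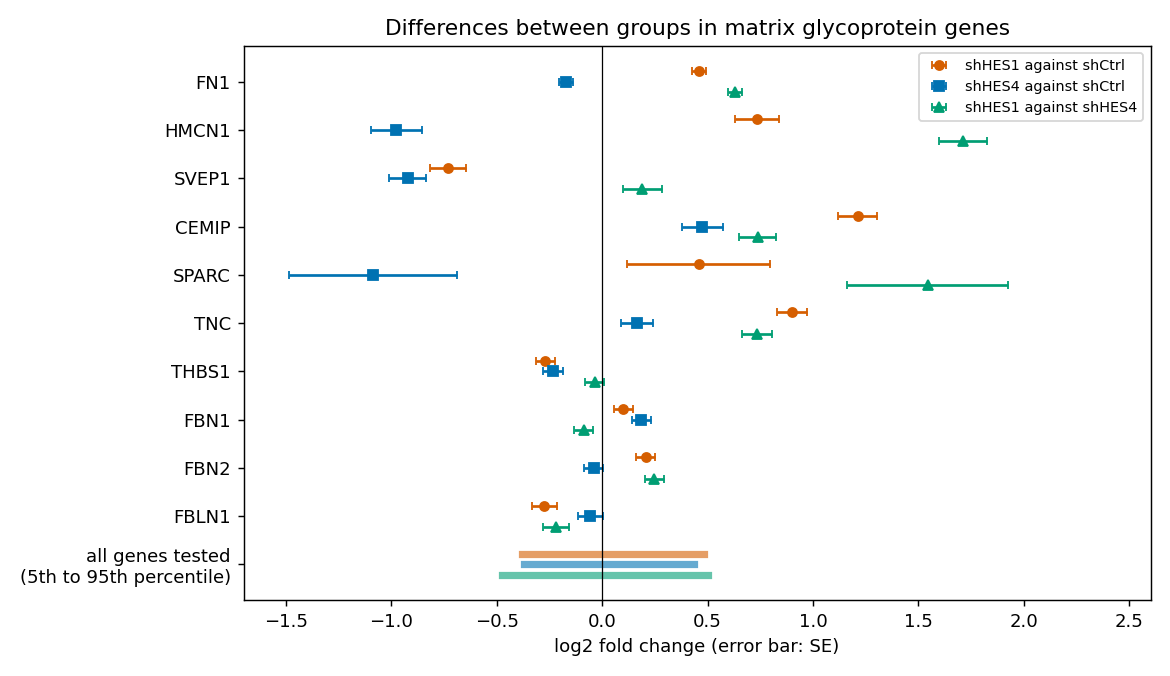
Log2 fold change (horizontal axis, bars SE) of the 10 genes in the 3 group comparisons; thick bars at the bottom run from the 5th to the 95th percentile of the 16903 genes tested. HMCN1, CEMIP and TNC lie beyond the range of all genes in shHES1 against shCtrl on the high side and SVEP1 on the low side; in shHES4 against shCtrl HMCN1, SVEP1 and SPARC lie beyond it on the low side and CEMIP on the high side.

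Counted together, 5 of the 10 genes were called higher and 3 lower in shHES1 against shCtrl (edgeR, adjusted p under 0.05 over all genes), where 5.25% and 4.48% of all genes tested were. The called genes were FN1, HMCN1, CEMIP, TNC and FBN2 on the high side and SVEP1, THBS1 and FBLN1 on the low side. In shHES4 against shCtrl, CEMIP and FBN1 were called higher and FN1, HMCN1, SVEP1 and THBS1 lower, where 3.24% and 2.7% of all genes were. In shHES1 against shHES4, FN1, HMCN1, CEMIP, SPARC, TNC and FBN2 were called higher and FBLN1 lower, where 7.41% and 7.65% of all genes were. The libraries did not overlap for 9 of the 10 genes in shHES1 against shCtrl, beside 27.6% of all genes tested, for 6 in shHES4 against shCtrl, beside 22.4%, and for 8 between the hairpins, beside 33%. Because the symbols were selected on these comparisons, nothing is read from the counts or from the median sizes that follow. The median size of the log2 difference over the 10 genes was 0.46 in shHES1 and 0.21 in shHES4 against shCtrl and 0.44 between the hairpins, beside 0.10, 0.09 and 0.11 over all genes tested. The call of FBN1 in shHES4 ended without shCtrl replicate 2 and without shHES4 replicate 2 or 3, which left 1 gene called higher. FBLN1 in shHES1 against shHES4 lost its call without shHES1 replicate 3 and without shHES4 replicate 1 or 2, which left none called lower, and SPARC lost its call there without shHES4 replicate 3. Without shHES4 replicate 2, SPARC was also called lower in shHES4 against shCtrl, at -1.66 ± 0.44. Scaling by library totals alone raised the share of all calls that were higher in shHES1 against shCtrl to 68.1%, where it was 54.0% with TMM scaling, and left the calls of the 10 genes as they were. The length and GC correction lowered that share to 44.3%, with 893 genes higher and 1121 lower.

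Long transcripts are frequent in the set, with 18208 bases for HMCN1, 12350 for SVEP1, 11756 for FBN1 and 11132 for FBN2, and fold changes of all genes moved slightly with length. For genes with a longest transcript of 8 to 12 kilobases the median log2 difference was 0.01 in shHES1 and -0.04 in shHES4 against shCtrl, and 0.05 between the hairpins. For the 320 genes of 12 kilobases and longer, where HMCN1 and SVEP1 belong, it was -0.000205, -0.04 and 0.04. Of these genes 7.5% were called lower in shHES4 against shCtrl and 14.7% higher in shHES1 against shHES4, beside 2.7% and 7.41% of all genes tested. For genes of 1 to 2 kilobases the median was -0.03, 0.02 and -0.04. After a correction for length and GC content the log2 difference in shHES1 against shCtrl was 0.73 ± 0.10 for HMCN1, -0.74 ± 0.09 for SVEP1, 1.19 ± 0.09 for CEMIP, 0.88 ± 0.07 for TNC and 0.43 ± 0.03 for FN1. In shHES4 against shCtrl it was -0.91 ± 0.11 for HMCN1, -0.86 ± 0.09 for SVEP1 and -0.14 ± 0.03 for FN1. For FBN2 in shHES4, already near 0, the sign turned to 0.02 ± 0.04.

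**Figure D4:**
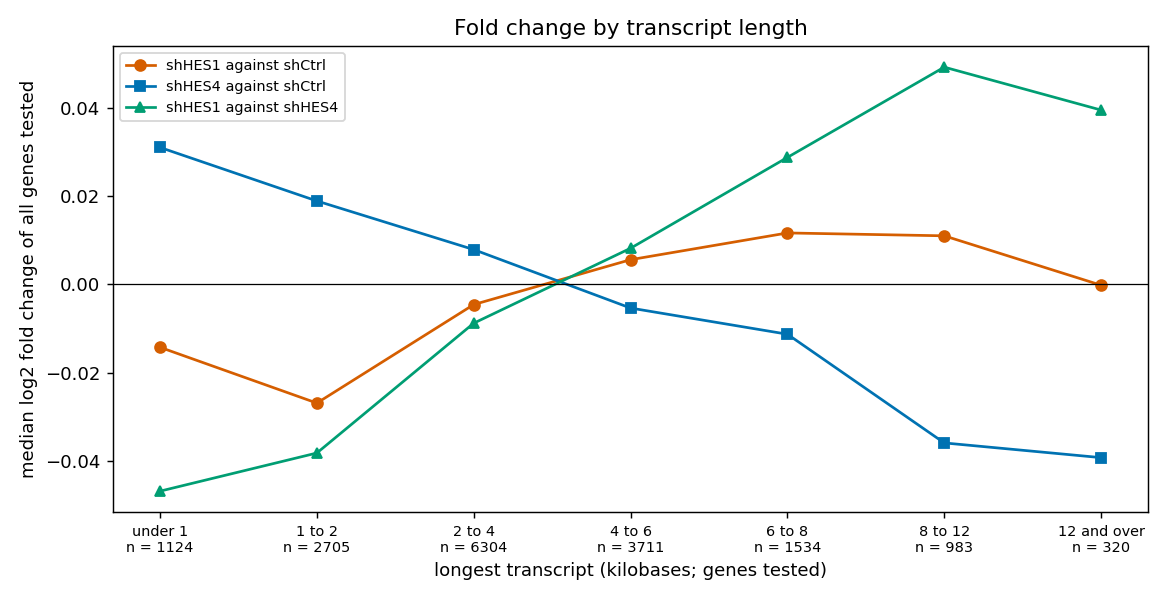
Median log2 fold change of all genes tested (vertical axis) by the length of the longest transcript (horizontal axis, kilobases, with the number of genes), for the 3 group comparisons. The medians stay between -0.05 and 0.05, highest at 8 to 12 kilobases in shHES1 against shHES4.

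Genes whose profile over the 9 libraries was most like that of FN1, HMCN1 or SVEP1 were sought among 11319 named genes with a mean of at least 5 CPM, by Pearson correlation of log2 CPM, given as a description. TGFB2, a transforming growth factor ligand, was most like FN1 (r = 0.997), with 134 CPM in shHES1, 79.4 CPM in shHES4 and 91.2 CPM in shCtrl on average. The sialyltransferase gene ST3GAL1 (0.989), the stress gene NDRG1 (0.989), the collagen crosslinking gene LOX (0.987) and DCBLD1 (0.987) followed. For HMCN1 the closest were PDE3A (0.989), ACADSB (0.986), CPD (0.983), CAMK1D (0.983) and SLC12A2 (0.981). PDE3A, a cyclic nucleotide phosphodiesterase gene, averaged 68.0 CPM in shHES1, 38.5 CPM in shHES4 and 55.1 CPM in shCtrl. For SVEP1 they were MAL2 (0.991), XIST (0.978), CYB5B (0.974), ALCAM (0.970) and the chaperone gene HSP90AA1 (0.960). XIST had 0 CPM in shHES1 and shHES4, where its log2 rests on a very small added constant. Its r thus separates shCtrl from the other libraries and shows no graded change. MAL2 averaged 74.2 CPM in shHES1, 70.8 CPM in shHES4 and 92.1 CPM in shCtrl. Between the 10 genes themselves the highest correlations were those of CEMIP with TNC (0.947), FN1 with HMCN1 (0.927), FN1 with FBN2 (0.904) and FN1 with TNC (0.902). The most negative were those of FBN2 with FBLN1 (-0.9265) and TNC with FBLN1 (-0.8124). All were taken over 9 libraries in 3 groups.

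Other genes of the matrix were followed in lists that hold none of the 10. The lists too were chosen with earlier results of these data known. Their calls, shares and p-values are thus descriptions and no separate support. Some genes stand in several lists, as EFEMP1, LTBP1, CEMIP2 and ITGA5 do, so the same calls recur between lists. Of 102 tested core matrix glycoprotein genes, 21 were higher and 9 lower in shHES1 against shCtrl, 29.4% in all beside 9.73% of all genes tested. The lower ones were 14 with the length and GC correction and 6 without shHES1 replicate 2. IGFBP3, a growth factor binding protein, rose by 1.00 ± 0.05 on the log2 scale (edgeR adjusted p = 2.11e-09), and the peroxidasin gene PXDN by 1.24 ± 0.07 (3.95e-09). The latent TGF-beta binding protein gene LTBP1 rose by 0.55 ± 0.04 (2.10e-07), and the basement membrane gene NID2 was at -0.43 ± 0.04 (2.69e-07). In shHES4 against shCtrl 17 were higher and 5 lower, 21.6% beside 5.94% of all genes, with 3 lower without shCtrl replicate 2. Those called with the smallest p were VTN (vitronectin) at 0.69 ± 0.03 and the fibrinogen chains FGG, FGB and FGA at 0.63 ± 0.04, 0.54 ± 0.04 and 0.45 ± 0.03, with edgeR adjusted p of 2.06e-09 to 9.97e-08. Median log2 differences of the list were 0.06 in both comparisons with shCtrl, where those of all genes were -0.00276 and 0.00103. Between the hairpins, 14 of the 102 were higher in shHES1 and 22 lower (35.3%, beside 15.1% of all genes, median 0.03). A difference from shCtrl that both shHES groups share cancels between the hairpins, so that comparison cannot show it.

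Of 13 tested relatives of the 10 genes, 2 were higher and none lower in shHES1 against shCtrl (15.4%, beside 9.73% of all genes, with a median log2 difference of 0.22): the fibulin-3 gene EFEMP1 at 0.42 ± 0.04 and CEMIP2, a cell surface relative of CEMIP, at 0.22 ± 0.03, with edgeR adjusted p of 2.69e-06 and 8.66e-05. In shHES4 against shCtrl none of the 13 was called by edgeR or DESeq2, with a median of 0.09, and between the hairpins 2 were higher in shHES1 and 2 lower (30.8%, median 0.24). Partners of microfibrils and elastic fibres, 25 tested, were higher in 10 cases and lower in none in shHES1 (40%, median 0.27). LOXL2 rose by 0.52 ± 0.03, TGFB2 by 0.56 ± 0.04 and LOX by 1.33 ± 0.13 (edgeR adjusted p = 2.18e-08, 2.85e-08 and 2.06e-06). In shHES4, 2 of the 25 were higher and 2 lower (16%, median 0.02), with LTBP1 at 0.25 ± 0.05 and TGFB2 at -0.20 ± 0.04 (edgeR adjusted p = 0.00186 and 0.00471). LOX was the other lower gene there, at -0.53 ± 0.15 (0.0473), and lost its call under 11 alternatives. Between the hairpins 7 were higher in shHES1 and none lower (28%, beside 15.1% of all genes).

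Receptors that bind these proteins were called in both directions. Of 19 tested, 5 were higher and 2 lower in shHES1 and 4 higher and none lower in shHES4, which is 36.8% and 21.1% beside 9.73% and 5.94% of all genes. The medians were 0.03 and 0.08, and with the length and GC correction 4 were lower in shHES1 and 1 in shHES4. ITGB3, an integrin chain that binds fibronectin and thrombospondin, rose by 1.08 ± 0.07 in shHES1 and 0.47 ± 0.07 in shHES4 (edgeR adjusted p = 2.07e-08 and 6.36e-04). ITGA5, the fibronectin receptor chain, rose by 0.29 ± 0.03 and 0.28 ± 0.03 (1.17e-05 and 2.96e-05), also in shHES4, where FN1 itself was lower. Without shHES1 replicate 2 or 3 the higher receptors in shHES1 were 3. Between the hairpins, 2 of the 19 receptors were higher in shHES1 and 5 lower (36.8%, beside 15.1% of all genes). Among 22 genes of fibronectin assembly and crosslinking, 5 were higher and 1 lower in shHES1 (27.3%, median 0.01), where FLNA (filamin A) was at -0.23 ± 0.03 and the lysyl hydroxylase gene PLOD2 at 0.27 ± 0.03 (edgeR adjusted p = 1.42e-05 and 3.92e-05). Without shCtrl replicate 2 or shHES1 replicate 3 the higher ones were 3. In shHES4, 3 were higher and 1 lower (18.2%, median -0.02). TGM2, a transglutaminase that crosslinks fibronectin, was at 0.20 ± 0.03 in shHES4 (edgeR adjusted p = 7.69e-05). Between the hairpins, 3 of the 22 were higher in shHES1 and 3 lower (27.3%). In shHES1 against shCtrl, 3 of 15 hyaluronan genes were called higher and 2 lower, and in shHES4 against shCtrl 1 and 1 (33.3% and 13.3%, medians 0.07 and 0.03). Without shHES4 replicate 2 none was higher in shHES4. Between the hairpins, 4 of the 15 hyaluronan genes were higher in shHES1 and 3 lower (46.7%). The synthase gene HAS2 rose by 0.40 ± 0.06 in shHES1 (edgeR adjusted p = 2.27e-04), and versican (VCAN), a hyaluronan-binding proteoglycan, fell by 0.62 ± 0.04 on the log2 scale in shHES4 (5.98e-08).

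**Figure D5:**
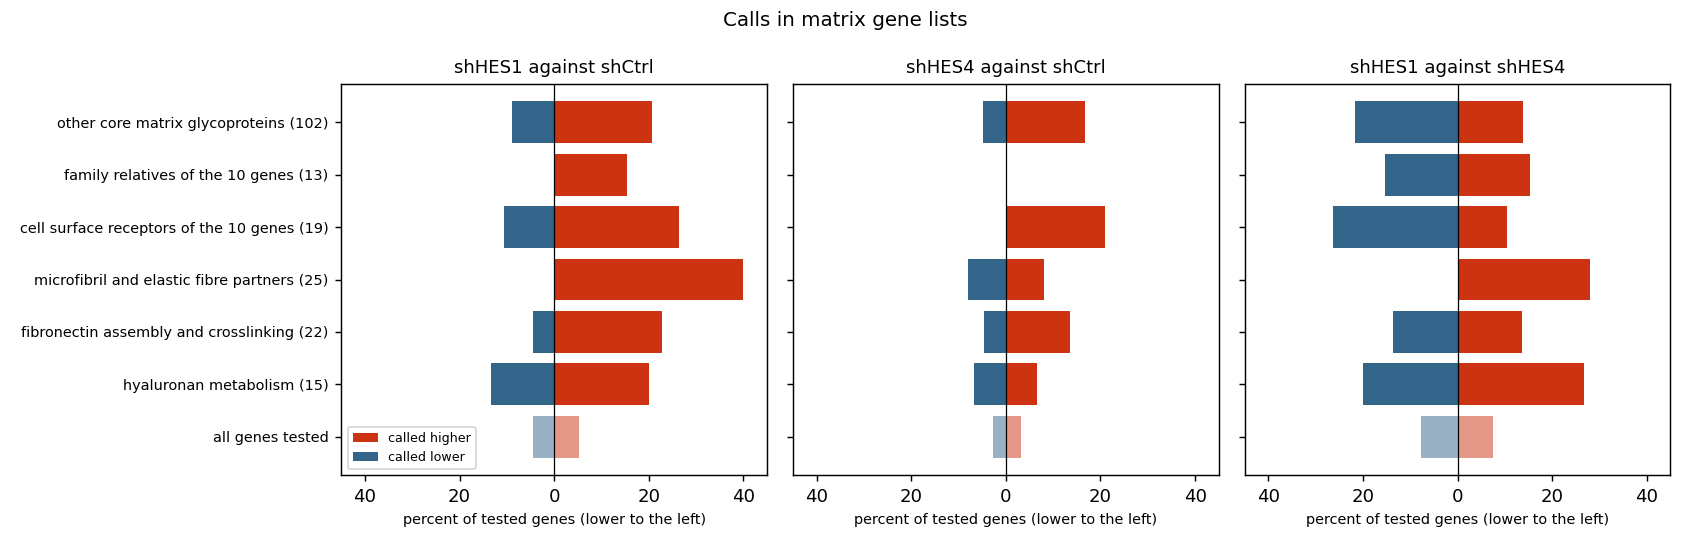
Share of tested genes called higher (right of 0) and lower (left of 0) in 6 matrix gene lists and in all genes tested, for the 3 group comparisons; the number of tested genes stands beside each list. Microfibril and elastic fibre partners were called in 40% of cases in shHES1 against shCtrl, all higher, while no relative of the 10 genes was called in shHES4 against shCtrl.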

How the data were processed

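Estimated counts by Ensembl gene were deposited for 9 libraries. Aligner, counter, annotation and strand setting: not given in the sources used here. Per the labels' protocols, TRIzol RNA went into SMARTer libraries. The submitters' processing notes name mouse builds, which the human identifiers do not match. Fractional estimates made up 35.5% of values above 0 (tolerance 1e-06) and were rounded. Genes were kept by filterByExpr (16903), scaled by TMM and fitted in 3 groups by the quasi-likelihood F test of edgeR 4.0.16 (R 4.3.3, 6 residual degrees of freedom, Benjamini-Hochberg adjustment over all genes, threshold 0.05). SE is the log2 fold change divided by the square root of F. Depth (22.8 to 27.6 M) limits the precision of low genes. Symbols, positions and lengths came from the reference name table and GENCODE 29 on GRCh38. The 10 genes and the lists were chosen with earlier results of these data known. In each list up to 4 genes with the smallest adjusted p per comparison could be named, and 5 likeness partners for FN1, HMCN1 and SVEP1. The fit was tested on simulated data for shHES1 and shHES4 against shCtrl. Set changes of 1.25-fold were recovered in 70% and 50% of cases, and of 1.5-fold in 66% and 72%. Recovery was 84% and 76% at 2.0-fold and 96% and 92% at 4.0-fold, with 14 and 10 false calls. DESeq2 1.42.0, other scalings and filters, a length and GC correction, a replicate block and leaving out each library were alternatives.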

Additional observations from a re-analysis of the deposited data

How the results depend on the processing

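Over 17 alternatives, 494 of 507 values of the 10 genes kept their direction and their side of the threshold, 7 lost a call, 2 gained one and 4 turned sign, all 4 near 0. FBN2 in shHES4 against shCtrl turned to 0.0161 with the length and GC correction. Leaving out 1 library at a time, it ran from -0.0794 to 0.00606 (without shHES4 replicate 1), FBLN1 there from -0.12 to 0.00814 (without shHES4 replicate 3), and THBS1 in shHES1 against shHES4 from -0.0689 to 0.00191 (without shHES1 replicate 1). The cause was not tested. The same omissions gave 1084 (without shHES1 replicate 2) to 1800 genes called in shHES1 against shCtrl, 682 to 1015 in shHES4 against shCtrl and 1775 to 2936 between the hairpins. Of the 10 genes it left 5 called higher and 3 lower in shHES1, 1 to 2 higher and 4 to 5 lower in shHES4, and 5 to 6 higher and 0 to 1 lower between the hairpins. With the length and GC correction 2 of the 10 were lower between the hairpins. SPARC, under 5 CPM, had no value with the stricter filter. With the replicate number as a block, 1443 genes were called in shHES1 and 850 in shHES4 against shCtrl and 2297 between the hairpins, and the calls of the 10 genes were the same. The numbers were not taken as a pairing, since same-numbered libraries correlated at -0.132 to 0.0928 in their deviations from group means. Few counts limit SPARC most.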
